A study of Mus musculus with 21 samples.

Results

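Type I interferon-stimulated genes were followed in IRE1α knockout (KO) and wild-type (WT) Myc-CaP tumours and in the cells they were grown from. The set holds 42 named genes of the 45706 in the count table, each matched by its symbol. It covers the ISGF3 factors and their relatives, cytosolic RNA sensors, and the effectors that interferon induces. The genes were divided by their level in cultured WT cells. A gene with 1 CPM (a count scaled to the library total) or more in both WT cell libraries was called cell-expressed, and the others tumour-only, which gave 21 genes in each class.

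Myc-CaP is a mouse prostate cancer line from an FVB mouse with a Myc transgene in the prostate. IRE1α, encoded by Ern1, is a kinase and endoribonuclease of the endoplasmic reticulum stress response. The KO lines KO1, KO2 and KO3 were all made with Cas9 and 1 guide to Ern1; whether each is a clone is not given in the sources used here. Tumours were grown in FVB mice: 3 libraries each of KO1, KO2 and KO3 and 4 of WT. Cultured cells gave 2 libraries each of KO1, KO2, KO3 and WT. All KO lines were set against the same WT libraries, and WT is 1 line. Nothing in the labels says that libraries of a group came from separate mice or cultures, so the p-values measure the spread between libraries. The descriptions of WT tumour replicates 3 and 4 share a number, and they may come from the same mouse.

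Type I interferons bind the receptor IFNAR1-IFNAR2, whose kinases JAK1 and TYK2 activate ISGF3. This complex contains STAT2 and IRF9 and binds the interferon-stimulated response element (ISRE) in the promoters of its target genes. The targets include the RNA sensors RIG-I and MDA5, the IFIT and OAS proteins that recognise foreign or double-stranded RNA, and the ubiquitin-like protein ISG15 with its conjugation enzymes. Many cells keep a low level of these genes without added interferon, and in tumours both cancer cells and host cells express them.

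Library totals were 18105538 to 25068254 counts in cells and 15994285 to 27497796 in tumours. Of markers of prostate epithelium, Krt8 and Hoxb13 were present in every cell library, while Epcam was at 0 there. Ern1 mRNA was not lost: it stood at 60.4 to 92.1 CPM in KO tumours and 64.7 to 84.0 CPM in WT tumours, and at 171 to 196 CPM in KO cells and 118 to 133 CPM in WT cells, where every KO library was above both WT libraries. Such a count cannot show a small indel. WT tumour replicates 1 and 4 stood apart. The summed neutrophil markers had 5.03 to 11.6 CPM in KO tumours, 318 CPM in WT replicate 1 and 5.25 to 8.41 CPM in the other WT tumours, while summed skeletal muscle markers had 369 to 1000 CPM in KO1 tumours, 15.6 to 746 CPM in KO2, 1.15 to 5.19 CPM in KO3, 4293 CPM in WT replicate 1 and 0.976 to 54.2 CPM in the other WT tumours. In replicate 4 the gene Yam1 took 24.0% of the counts. Levels of single libraries are CPM scaled by TMM over all 21 libraries.

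The ISRE core TTTCNNTTTC was searched on both strands of the RefSeq promoters of build GRCm38.p6, which run from 250 bases before to 50 bases after a gene's start. Of the 42 genes, 30 had a promoter in that table, and 13 of these (43.3%) held the core, against 3.99% of the 27025 genes of the table. The core was in 7 of 14 tumour-only genes with a promoter and in 6 of 16 cell-expressed genes. Promoters of 4 genes are shown because these genes behaved differently in the results below: Ifit1, Ifit3 and Ddx58 were higher in KO tumours and Isg15 did not pass the test. Capitals mark the core on the strand printed, and in Isg15, where it lies on the opposite strand, its reverse complement GAAANNGAAA.
Ifit1: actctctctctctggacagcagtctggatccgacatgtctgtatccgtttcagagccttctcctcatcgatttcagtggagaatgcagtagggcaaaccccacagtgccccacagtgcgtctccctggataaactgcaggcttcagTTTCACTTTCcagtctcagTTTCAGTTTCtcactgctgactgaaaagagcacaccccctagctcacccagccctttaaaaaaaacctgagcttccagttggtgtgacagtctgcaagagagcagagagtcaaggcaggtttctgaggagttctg
Ifit3: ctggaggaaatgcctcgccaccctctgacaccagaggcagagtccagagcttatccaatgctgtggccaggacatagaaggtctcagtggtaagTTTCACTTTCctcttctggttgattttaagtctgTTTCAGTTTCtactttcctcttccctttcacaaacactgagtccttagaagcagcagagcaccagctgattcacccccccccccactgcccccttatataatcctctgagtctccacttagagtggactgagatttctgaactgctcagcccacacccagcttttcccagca
Ddx58: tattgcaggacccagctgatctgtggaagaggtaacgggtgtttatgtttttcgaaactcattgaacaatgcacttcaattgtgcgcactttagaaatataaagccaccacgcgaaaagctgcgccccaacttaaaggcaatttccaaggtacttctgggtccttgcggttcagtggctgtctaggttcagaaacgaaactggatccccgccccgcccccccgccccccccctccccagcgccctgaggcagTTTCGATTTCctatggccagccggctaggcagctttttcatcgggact
Isg15: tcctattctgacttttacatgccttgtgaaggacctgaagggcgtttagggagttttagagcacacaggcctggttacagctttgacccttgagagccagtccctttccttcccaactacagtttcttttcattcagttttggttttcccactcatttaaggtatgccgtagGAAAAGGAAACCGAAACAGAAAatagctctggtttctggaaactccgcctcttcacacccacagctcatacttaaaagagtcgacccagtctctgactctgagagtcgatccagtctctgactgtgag
The Ifit1 promoter is chr19:34640639-34640938 on the plus strand, with cores that begin 104 and 85 bases before the start. Ifit3 lies in the same region, at chr19:34583279-34583578 on the plus strand, with cores 156 and 122 bases before the start. The Ddx58 window is chr4:40239776-40240075 on the minus strand, and its core begins 2 bases after the start. Isg15, at chr4:156200769-156201068 on the minus strand, holds 3 overlapping cores that begin 78, 72 and 66 bases before the start. Among genes higher in KO tumours 3 of the 7 with a promoter held the core, and among the others 10 of 23. A match is a description and does not show that a factor binds.

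The 3 IFIT genes of the set, the RIG-I gene and 4 other interferon-stimulated genes rose in KO tumours. By edgeR's quasi-likelihood test with Benjamini-Hochberg adjustment over 14200 genes, 8 of 42 rose in KO tumours and none fell, where 3.65% of all genes tested passed (1.28% higher, 2.37% lower). The 8 were Ifit1, Ifit2, Ifit3, Oasl2, Herc6, Samd9l, Ddx58 and Parp9. All 42 were tested, 27 had an unadjusted p under 0.05, and DESeq2 called 16. The share of all genes that DESeq2 called was not computed, here or below. The log2 fold change was positive in 41, all but Ifi27, and its median was 0.52, against 0.00 over all genes tested. In 7 genes every KO tumour stood above every WT tumour (16.7%, against 1.89% of all genes). Bulk RNA cannot tell fewer cells of a type from less RNA per cell. None of the 42 passed by limma voom with line as a random block, nor by edgeR with counts summed per line, and the medians there were 0.51 and 0.57. With WT replicates 3 and 4 summed, 4 genes passed (Ddx58, Herc6, Ifit1 and Parp9). Without WT replicates 1 and 4, a fit chosen after seeing the data, Parp9 and Dtx3l passed; Parp9 had 0.53 (edgeR adjusted p 0.0411), and the other 7 of the 8 had 0.59 to 0.93 with adjusted p of 0.0762 to 0.276 by edgeR.

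The factors that carry the interferon signal to the nucleus were all on the positive side, and none passed. Stat2, a subunit of ISGF3, had 20.6, 20.8 and 15.6 CPM in KO1 tumours, 16.8, 16.4 and 20.9 CPM in KO2, 18.7, 17.0 and 23.3 CPM in KO3, and 17.5, 12.4, 13.8 and 10.3 CPM in WT. WT replicate 1 lay within the KO range and the other WT tumours below it. The log2 fold change was 0.48 ± 0.13 (SE; edgeR adjusted p 0.0609). Irf7, which amplifies interferon production, averaged 44.8 ± 8.70 CPM in KO tumours (SD, n = 9) and 31.1 ± 5.90 CPM in WT tumours (SD, n = 4), a difference of 0.51 ± 0.15 (SE, log2) with an adjusted p of 0.0708 by edgeR. Irf9, the DNA-binding subunit of ISGF3, averaged 30.2 ± 3.43 CPM in KO tumours (SD, n = 9) and 22.9 ± 4.62 CPM in WT tumours (SD, n = 4; edgeR adjusted p 0.0692). Without WT replicate 1, Stat2 and Irf9 passed, with log2 fold changes of 0.59 and 0.48, and Irf7 passed without KO2 replicate 2, at 0.57. Irf9 shares 123 exon bases on the same strand with Rnf31.

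Among the RNA sensors Ddx58, which encodes RIG-I, rose. It had 55.8, 48.4 and 39.1 CPM in KO1 tumours, 45.8, 37.5 and 43.1 CPM in KO2, 47.9, 45.6 and 45.3 CPM in KO3, and 31, 27.5, 32.0 and 30.1 CPM in WT. The lowest KO tumour was above the highest WT tumour. The log2 fold change was 0.58 ± 0.10 (SE; edgeR adjusted p 0.00785), and it stayed between 0.53 and 0.61 and past the threshold with each library left out in turn. Eif2ak2, the kinase PKR, was the sensor with the most counts and had a lowest, median and highest level of 95, 104 and 153 CPM in KO tumours, against 53.8, 69.1, 70.6 and 102 CPM in WT tumours. WT replicate 4, at 102 CPM, was the WT library within the KO range, and without it Eif2ak2 passed at 0.77, whereas with all libraries the value was 0.56 and the adjusted p 0.0803 by edgeR. The remaining sensors did not pass: Ifih1 (MDA5), Zbp1, Dhx58 and the RNA-editing enzyme Adar had log2 fold changes of 0.60, 0.66, 0.23 and 0.04.

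The 3 IFIT genes of the set, whose proteins bind foreign RNA and block its translation, all rose, and they lie in 1 region of chromosome 19. Ifit1 had 25.4, 20.1 and 15 CPM in KO1 tumours, 15.6, 13.7 and 16.5 CPM in KO2, 22.9, 22.4 and 18.5 CPM in KO3, and 10.4, 9.84, 11.6 and 10.7 CPM in WT. Ifit3 had 21, 21.6 and 13.1 CPM in KO1, 13.6, 11.7 and 11.9 CPM in KO2, 20.1, 17.6 and 16 CPM in KO3, and 8.56, 8.98, 11.5 and 7.52 CPM in WT. In both genes every KO tumour was above every WT tumour, and KO2 had the lowest mean of the 3 KO lines. Ifit2 had 65.4, 38.5 and 30.2 CPM in KO1, 31.1, 31.9 and 31.3 CPM in KO2, 33.5, 38.5 and 33.3 CPM in KO3, and 13.3, 19.6, 19.0 and 25.4 CPM in WT. Its groups did not overlap either, and KO1 replicate 1 stood far above the rest. The log2 fold changes of Ifit1, Ifit2 and Ifit3 were 0.81 ± 0.16, 0.92 ± 0.22 and 0.81 ± 0.19 (SE), with adjusted p of 0.0190, 0.0344 and 0.0312 by edgeR. Ifit1 kept its call in 12 of 13 fits that left out 1 library and lost it without WT replicate 2 (0.77). Ifit3 lost it without WT replicate 1, 2 or 4, with values of 0.75, 0.80 and 0.74. Ifit2 lost it without WT replicate 1, 2 or 3 (0.75, 0.91 and 0.91), KO1 replicate 2 (0.92) or KO2 replicate 1 (0.94).

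The OAS genes encode synthetases of 2-5A, the activator of RNase L, and their inactive relatives. All 6 had positive log2 fold changes, of 0.51 to 0.75, each with an unadjusted p under 0.05. Oasl2 alone passed, with 46.5, 49.5 and 36.3 CPM in KO1 tumours, 30.5, 24.2 and 38.0 CPM in KO2, 44.9, 36.7 and 41.0 CPM in KO3, and 29.9, 18.3, 21.5 and 21.7 CPM in WT. KO2 replicate 2 lay below WT replicate 1, so the groups overlapped. Its log2 fold change was 0.75 ± 0.17 (SE; edgeR adjusted p 0.0273). The call was lost without WT replicate 2, 3 or 4, at 0.64, 0.72 and 0.73. Oas1a and Oas1g are close paralogs, as are other OAS and IFIT genes, so how reads were divided between them is uncertain.

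Genes of ISG15 conjugation moved unequally. Herc6, the main ISG15 ligase of the mouse, rose, with 29.5, 21.4 and 16.5 CPM in KO1 tumours, 18.3, 18.2 and 19.8 CPM in KO2, 21.6, 25.2 and 21 CPM in KO3, and 12.9, 9.72, 14.1 and 13.6 CPM in WT. Every KO tumour was above every WT tumour. The log2 fold change was 0.74 ± 0.15 (SE; edgeR adjusted p 0.0226), and the call was lost only without WT replicate 2 (0.63) among fits that left out 1 library. Isg15 itself had a lowest, median and highest level of 35.8, 53.8 and 76.9 CPM in KO tumours, against 59.3, 39.2, 43.9 and 59.9 CPM in WT tumours. All WT tumours lay inside the KO range, and the log2 fold change was 0.13 ± 0.17 (SE; adjusted p = 0.705, edgeR). Usp18, which removes ISG15 and restrains the receptor, averaged 22.4 ± 5.44 CPM in KO tumours (SD, n = 9) and 14.6 ± 1.90 CPM in WT tumours (SD, n = 4) and did not pass, with an adjusted p of 0.0690 by edgeR. Without KO2 replicate 2 it passed, at 0.66. The ubiquitin ligase gene Trim25 averaged 86.6 ± 11.4 CPM in KO tumours (SD, n = 9) and 74.6 ± 7.80 CPM in WT tumours (SD, n = 4; edgeR adjusted p 0.344).

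Parp9, whose protein pairs with the ubiquitin ligase DTX3L in the nucleus, rose with a small spread. It had 46.4, 43.6 and 36.1 CPM in KO1 tumours, 43.2, 37.6 and 40.8 CPM in KO2, 42.1, 42.1 and 44.8 CPM in KO3, and 34.9, 28.1, 29.1 and 28.4 CPM in WT. The groups did not overlap, although WT replicate 1 came close to the lowest KO tumour. Its log2 fold change was 0.46 ± 0.08 (SE; edgeR adjusted p 0.00881), and it kept its call with each library left out in turn (0.42 to 0.50). Dtx3l and Parp14, neighbours of Parp9 on chromosome 16, had values of 0.43 and 0.52 with adjusted p of 0.0735 and 0.0670 by edgeR, and Parp14 passed without WT replicate 4 (0.66). Parp9 and Dtx3l share 458 exon bases on opposite strands. The kit marks strand, but the counting setting is not given in the sources used here.

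Antiviral effectors were mixed. Samd9l, a growth-restraining antiviral factor, rose, with 84.6, 45.5 and 35.3 CPM in KO1 tumours, 50.0, 43.2 and 49.1 CPM in KO2, 44.4, 59.6 and 44.2 CPM in KO3, and 29.0, 23.2, 30.2 and 35.0 CPM in WT. Every KO tumour was above every WT tumour, by a small margin for KO1 replicate 3. Its log2 fold change was 0.77 ± 0.20 (SE; edgeR adjusted p 0.0447). That call was the least stable of the 8: it held in 4 of 13 fits that left out 1 library, with log2 fold changes of 0.65 to 0.88, and was lost without each WT tumour, each KO2 tumour, KO1 replicate 2 or KO3 replicate 2. Bst2 (tetherin), which holds budding virus at the cell surface, averaged 264 ± 50.4 CPM in KO tumours (SD, n = 9) and 224 ± 58.4 CPM in WT tumours (SD, n = 4; edgeR adjusted p 0.477). Ifi27 was the 1 gene below 0, at -0.25 ± 0.15 (SE; adjusted p = 0.381, edgeR), with 86.4, 104 and 129 CPM as the lowest, median and highest KO tumour, against 185, 105, 103 and 114 CPM in WT tumours. Without WT replicate 1, the high library, its value was -0.06. Mx1, Mx2 and Rsad2 (viperin) had log2 fold changes of 0.67, 0.36 and 0.39 and did not pass.

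**Figure D1:**
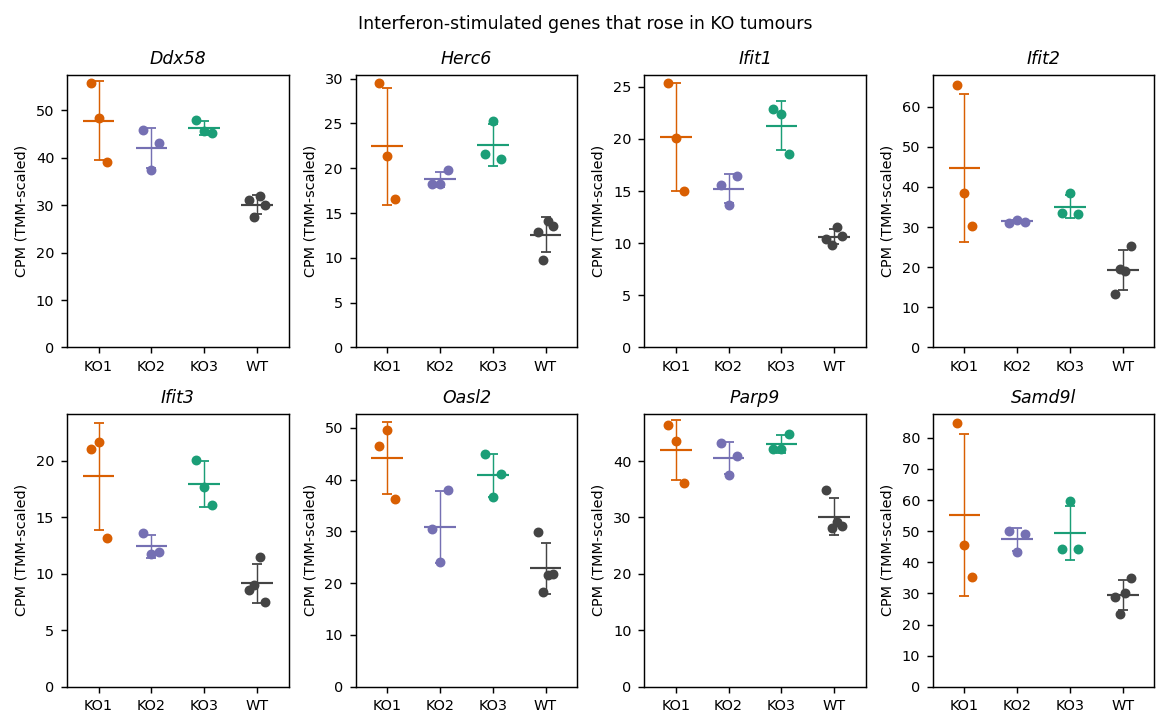
Level of the 8 genes that rose in KO tumours, in each tumour library (CPM, TMM-scaled, linear axis from 0), by group. Points are libraries, horizontal lines the group means and bars the SD (n = 3 for each KO line, 4 for WT). Ddx58 lies between 37.5 and 55.8 CPM in KO tumours and between 27.5 and 32.0 CPM in WT tumours.

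Each KO line was also set against the shared WT tumours. By this test 18 of 42 genes rose in KO1, 2 in KO2 and 5 in KO3, and none fell in any line, by edgeR over 14483 genes. Of all genes tested 3.71%, 0.898% and 0.545% rose in KO1, KO2 and KO3, and 6.86%, 2.15% and 0.690% fell. The median log2 fold change over the 42 genes was 0.65 for KO1, 0.25 for KO2 and 0.51 for KO3 tumours, each beside -0.02 over all genes. Ddx58 and Parp9 passed in all 3 lines, with 0.61, 0.49 and 0.59 for Ddx58 and 0.43, 0.44 and 0.49 for Parp9. Ifit1, Ifit3 and Oasl2 passed in KO1 and KO3. All tumours of a line were above all WT tumours in 20 genes in KO1, 7 in KO2 and 16 in KO3, against 11.5%, 10.0% and 6.69% of all genes. The counts rested on single libraries: the KO1 count was 5 without KO1 replicate 1, 7 without KO1 replicate 2, 8 without WT replicate 2 and 25 without WT replicate 1. The KO2 count was 0 or 1 without any 1 of its 7 libraries, and the KO3 count was 0 without KO3 replicate 2, 1 without KO3 replicate 1, KO3 replicate 3 or WT replicate 2, 2 without WT replicate 3 or 4 and 4 without WT replicate 1. With WT replicates 3 and 4 summed the counts were 16, 0 and 2 for KO1, KO2 and KO3. Without WT replicates 1 and 4 together KO1 had 22 such genes, KO2 had 1 and KO3 had 3.

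A direct test of differences among the 3 KO lines in tumours found 1 gene, where 2.95% of all genes passed. This was Lgals3bp, a secreted glycoprotein that binds galectins and integrins, with an adjusted p of 0.0035 by edgeR's F test. It had 119, 147 and 129 CPM in KO1, 60.6, 60.0 and 62.3 CPM in KO2, 86.6, 73.7 and 107 CPM in KO3, and 71.8, 55.9, 62.8 and 59.7 CPM in WT. KO1 tumours stood above every other tumour, KO3 tumours above WT, and KO2 tumours lay within the WT range. Against WT, Lgals3bp rose by 1.03 ± 0.12 (SE, log2) in KO1 (adjusted p = 0.000439, edgeR), while KO2 and KO3 gave -0.02 ± 0.12 and 0.49 ± 0.12. Another 7 genes had an unadjusted p under 0.05 in this test, so for the rest a difference among lines was not shown, whatever their counts of calls by line.

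**Figure D2:**
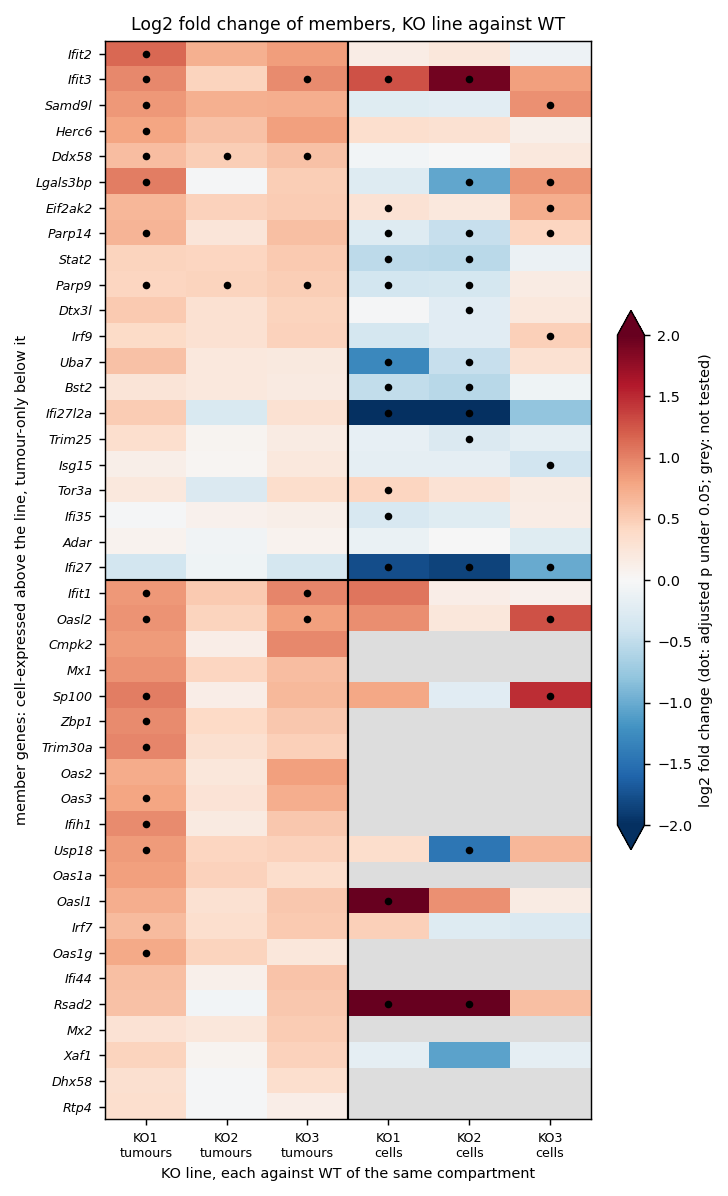
Log2 fold change of each gene in KO1, KO2 and KO3 against the shared WT libraries, in tumours and in cultured cells, as a colour scale in which values beyond ±2 take the end colours; dots mark genes that passed (edgeR), and grey marks genes not tested. Cell-expressed genes are above the line and tumour-only genes below it. Most genes are above 0 in all 3 lines in tumours, while in cells Ifi27 and Stat2 are below 0 in all 3 lines and Samd9l is above 0 in KO3 only.

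Markers of host cells were also measured, and some passed in KO1. Of 10 macrophage markers 5 rose in KO1 tumours (Adgre1, C1qa, C1qb, C1qc and Mertk) and none in KO2 or KO3. Their summed level was 966 to 1276 CPM in KO1, 551 to 764 CPM in KO2, 668 to 970 CPM in KO3 and 372 to 1073 CPM in WT. Mertk, which is part of this sum, was not limited to host cells. In culture it had 14.7 to 17.9 CPM in WT cells and 14.4 to 16.4 CPM in KO cells. In tumours Mertk had at most 5.64 CPM in WT and 7.17 CPM in KO. Adgre1, C1qa, C1qb and C1qc were at 0 in all cell libraries. In all KO tumours together none of the 10 passed, with a median log2 fold change of 0.34. With the macrophage score as a covariate, chosen after seeing the data, 4 genes passed in KO against WT (Ddx58, Herc6, Ifit1 and Parp9), and the median over the 42 was 0.37. In KO1 tumours 5 passed with that covariate. Of 7 tested fibroblast markers Col1a2 rose in KO1, and their median log2 fold change was 0.95 in KO1, -0.59 in KO2 and -0.26 in KO3. Their summed level was 1962 to 2971 CPM in KO1, 679 to 938 CPM in KO2, 709 to 1575 CPM in KO3 and 429 to 2636 CPM in WT. Of 8 leukocyte markers none passed in all KO tumours together, while by line Arhgdib rose in KO1 and Cd52 fell in KO3. Part of this list was expressed in culture, where Arhgdib fell in KO1 and KO2 cells. The list summed to 183 to 188 CPM in WT cells, 99.8 to 117 CPM in KO1, 104 to 116 CPM in KO2 and 162 to 171 CPM in KO3 cells. In tumours it summed to 318 to 619 CPM in WT and 323 to 621 CPM in KO. With a leukocyte covariate 11 genes passed in KO against WT and 14 in KO1. The share of all genes was not computed for the fits with a covariate. Of 4 tested natural killer cell markers Gzmb and Klrk1 rose in KO tumours, by 2.09 and 1.49 (log2). Gzmb was near the limit of detection, with 0.335 to 0.990 CPM in KO and 0.0503 to 0.239 CPM in WT tumours. The summed level of all 8 was 1.59 to 9.38 CPM in KO and 1.49 to 2.72 CPM in WT tumours. Of 4 tested T cell markers none passed in all KO tumours together and Cd4 rose in KO1; the summed level of the whole list was 6.59 to 8.69 CPM in KO1, 3.83 to 4.68 CPM in KO2, 2.85 to 9.30 CPM in KO3 and 1.96 to 3.64 CPM in WT. None of 5 tested markers of plasmacytoid dendritic cells, the main producers of type I interferon, passed in all KO tumours together or in any line. Of 6 tested neutrophil markers Clec4e, Il1b and S100a9 were lower in all KO tumours together, beside the high WT replicate 1. The part of these cells in the results was not tested further.

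**Figure D3:**
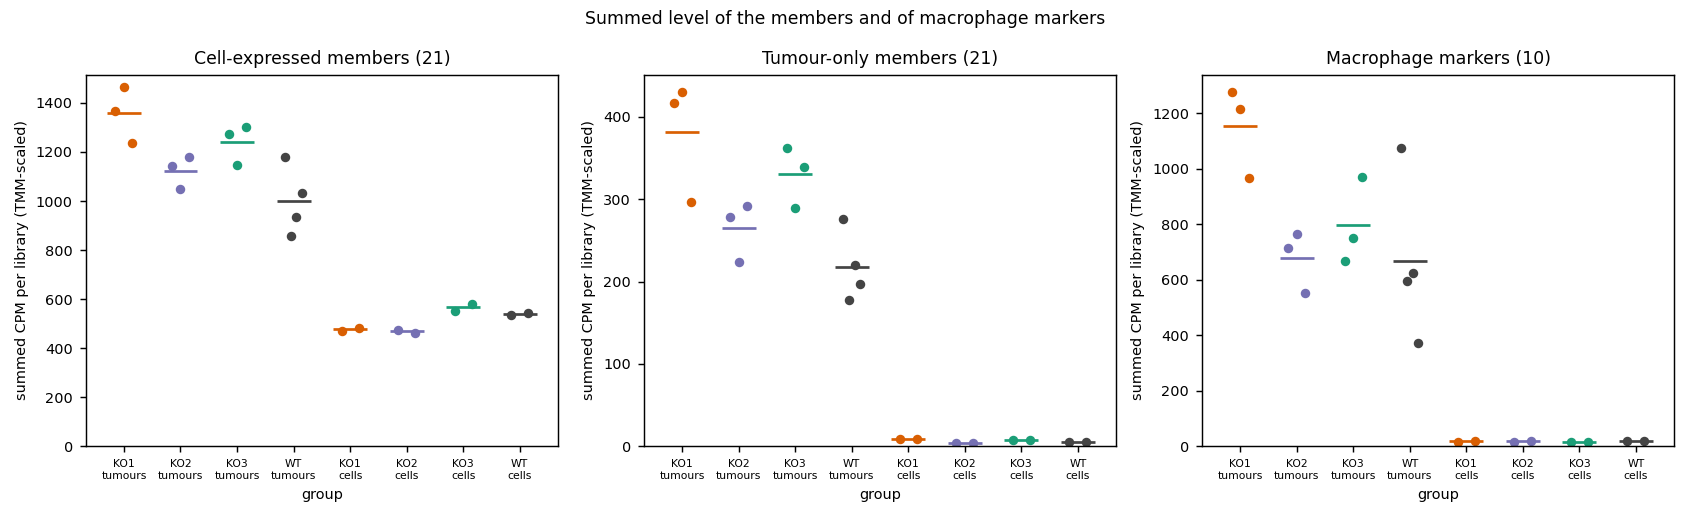
Summed level (CPM, TMM-scaled) of the 21 cell-expressed genes, the 21 tumour-only genes and 10 macrophage markers in each library, by group; points are libraries and lines the group means. Tumour-only genes sum to 297 to 430 CPM in KO1, 224 to 292 CPM in KO2, 289 to 363 CPM in KO3 and 178 to 276 CPM in WT tumours, and to 4.45 to 9.14 CPM in cells.

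Both classes held genes that rose in KO tumours. Of 21 cell-expressed genes 6 rose, with a median log2 fold change of 0.43. Of 21 tumour-only genes 2 rose (Ifit1 and Oasl2), with a median of 0.60 and all 21 values positive. Of all genes tested 1.28% rose, and their median was 0.00. The summed level of cell-expressed genes had a lowest, median and highest value of 1050, 1237 and 1465 CPM in KO tumours, against 858 to 1179 CPM in WT tumours. For tumour-only genes these were 224, 297 and 430 CPM in KO tumours, against 178 to 276 CPM in WT. In both sums the WT range reached into the KO range through WT replicate 1. The class depends on the threshold: at 0.5 CPM 25 genes were cell-expressed, and at 2 CPM 19. Ifit3, with 1.03 and 1.12 CPM of the library total in WT cells, was just inside, and Irf7, with 0.742 and 0.840 CPM, and Usp18, with 0.742 and 0.692 CPM, were just outside.

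The tumour-only class was close to silent in culture. Its 21 genes together had 4.45 to 9.14 CPM in KO cells and 4.78 to 5.25 CPM in WT cells. Cmpk2, Ifi44, Ifih1, Mx1, Trim30a and Zbp1 were at 0 counts in all 8 cell libraries, and Mx2 had at most 0.105 CPM in KO cells and was at 0 in both WT cell libraries. In WT tumours against WT cells 32 of 42 genes were higher and 2 lower, where 56.0% of 15173 genes passed (32.9% higher, 23.1% lower); the WT cells served to set the classes, so this is a description. Ifit2 and Stat2 went the other way: Ifit2 had 13.3, 19.6, 19.0 and 25.4 CPM in WT tumours and 59.2 and 56.0 CPM in WT cells, and Stat2 had 10.3 to 17.5 CPM in WT tumours and 23.9 and 24.2 CPM in WT cells. Per kilobase of exon, Bst2 had the highest level in WT tumours, at 248 CPM per kb, followed by Ifi27l2a (87.1), Ifi27 (86.5) and Isg15 (66.9), while Ifih1 was the lowest at 0.541 CPM per kb. The order of Ifi27l2a and Ifi27 does not hold beyond their spread, since Ifi27l2a ranged from 17.7 to 91.6 CPM among WT tumours.

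**Figure D4:**
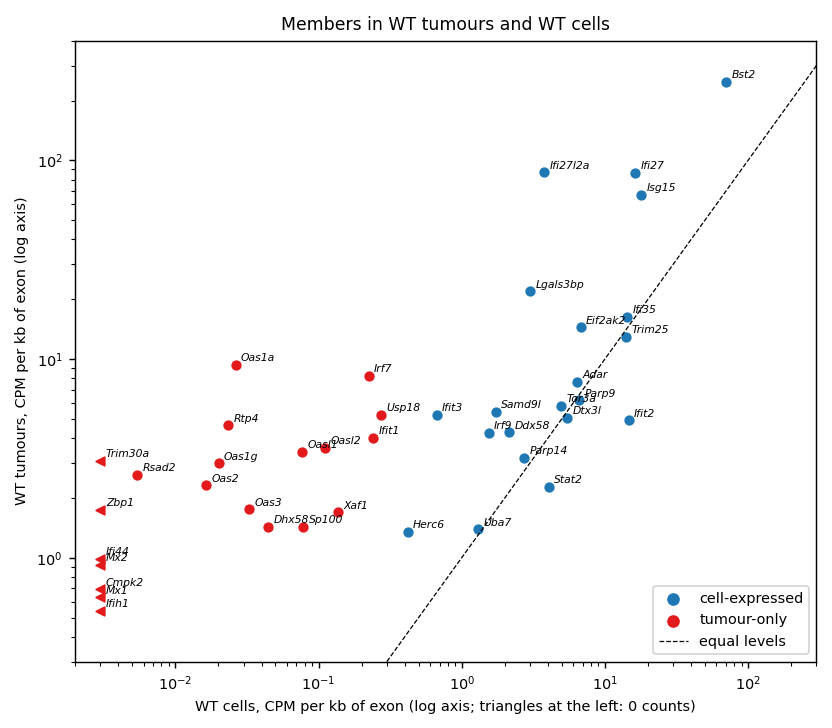
Mean level of each gene in WT tumours (vertical) against WT cells (horizontal), in CPM per kb of exon on log axes, with cell-expressed genes in blue and tumour-only genes in red; triangles at the left edge are genes at 0 counts in WT cells, and the dashed line marks equal levels. Bst2 is the highest in tumours, at 248 CPM per kb. Ifit2 and Stat2 lie below the line, and Trim25, Parp9 and Dtx3l lie just below it.

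In cultured cells the KO effect had no common direction. Filtering left 29 genes, and with the KO lines pooled 1 of them changed, Ifi27, which fell (14.8% of 12254 genes passed, 4.99% higher and 9.76% lower); 7 had an unadjusted p under 0.05 and DESeq2 called 4. Ifi27, which encodes a small membrane protein, had 7.78 and 6.33 CPM in KO1 cells, 6.12 and 7.12 CPM in KO2, 12.1 and 11.7 CPM in KO3, and 25.2 and 22.6 CPM in WT. Every KO library was below both WT libraries, and KO3 lay between. The log2 fold change was -1.48 ± 0.25 (SE; adjusted p = 0.00422, edgeR); without WT cells replicate 1 it was -1.41 and did not pass (adjusted p = 0.0729, edgeR). The median over the 29 was 0.03, against 0.02 for all genes. In 2 genes all KO libraries were above WT (Eif2ak2 and Ifit3) and in 5 below (Bst2, Ifi27, Ifi27l2a, Stat2 and Trim25), against 16.1% and 19.3% of all genes.

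In cells the lines parted in many genes. In KO1 cells 5 of 29 genes rose and 8 fell, in KO2 cells 2 rose and 11 fell, and in KO3 cells 7 rose and 2 fell. The background was high: 17.7% of all genes rose and 20.5% fell in KO1, 17.4% and 20.2% in KO2, and 10.4% and 14.1% in KO3. Without WT cells replicate 1 the counts were 7, 8 and 4, against 13, 13 and 9 with all libraries, and without WT cells replicate 2 the KO2 count was 8. Differences among the 3 lines passed in 19 of 29 genes, where 30.3% of all genes did. Without KO3 altogether, 13 genes passed in KO against WT cells. Without KO3 cells replicate 1 the count was 4, and without KO3 cells replicate 2 it was 2. The share of all genes was not computed for these fits, so their counts cannot be set against a background.

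Stat2 and Bst2 were low in KO1 and KO2 and near WT in KO3. Stat2 had 16.3 and 17.0 CPM in KO1 cells, 16.9 and 16.1 CPM in KO2, 22.7 and 21.5 CPM in KO3, and 23.9 and 24.2 CPM in WT. It fell by 0.53 ± 0.09 (SE, log2) in KO1 and by 0.54 ± 0.09 in KO2, with adjusted p of 0.000598 and 0.00063 by edgeR, and in KO3 the value was -0.12 ± 0.09. Bst2 had 51.6 and 39.0 CPM in KO1, 43.2 and 43.5 CPM in KO2, 58.1 and 61.3 CPM in KO3, and 62.3 and 64.6 CPM in WT. It too fell in KO1 and KO2, by 0.49 and 0.55. Parp9 and Parp14 also fell in KO1 and KO2 cells, Usp18 fell in KO2 and Isg15 fell in KO3. Parp14 rose in KO3 cells. Uba7, the enzyme that activates ISG15, was lowest in KO1, with 3.46 and 3.65 CPM, and had 6.43 and 6.29 CPM in KO2, 10.1 and 11.4 CPM in KO3 and 8.48 and 8.97 CPM in WT.

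KO3 cells stood above WT in other genes. Samd9l had 7.43 and 8.42 CPM in KO1 cells, 8.63 and 7.60 CPM in KO2, 16.7 and 18.4 CPM in KO3, and 9.0 and 9.76 CPM in WT. Lgals3bp had 7.78 and 6.48 CPM in KO1, 3.71 and 4.58 CPM in KO2, 16.7 and 14.7 CPM in KO3, and 8.53 and 8.50 CPM in WT. Both rose in KO3, by 0.91 ± 0.12 and 0.88 ± 0.14 (SE, log2), and Lgals3bp fell in KO2 by 1.03 ± 0.16. In tumours the order of the lines for Lgals3bp was another, with KO1 highest. Eif2ak2 rose in KO1 and KO3, and had 41.4 and 43.2 CPM in KO1, 42.7 and 37.0 CPM in KO2, 58.3 and 56.4 CPM in KO3, and 33.2 and 35.9 CPM in WT. Ifit3 rose in KO1 and KO2, by 1.27 ± 0.31 and 1.92 ± 0.30, and had 2.51 and 3.09 CPM in KO1, 4.92 and 3.95 CPM in KO2, 1.47 and 2.63 CPM in KO3, and 1.12 and 1.21 CPM in WT. Rsad2, which rose in KO1 and KO2, had 0.853 and 0.708 CPM in KO1, 0.314 and 0.292 CPM in KO2, 0 and 0.0762 CPM in KO3, and 0.0469 and 0 CPM in WT.

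**Figure D5:**
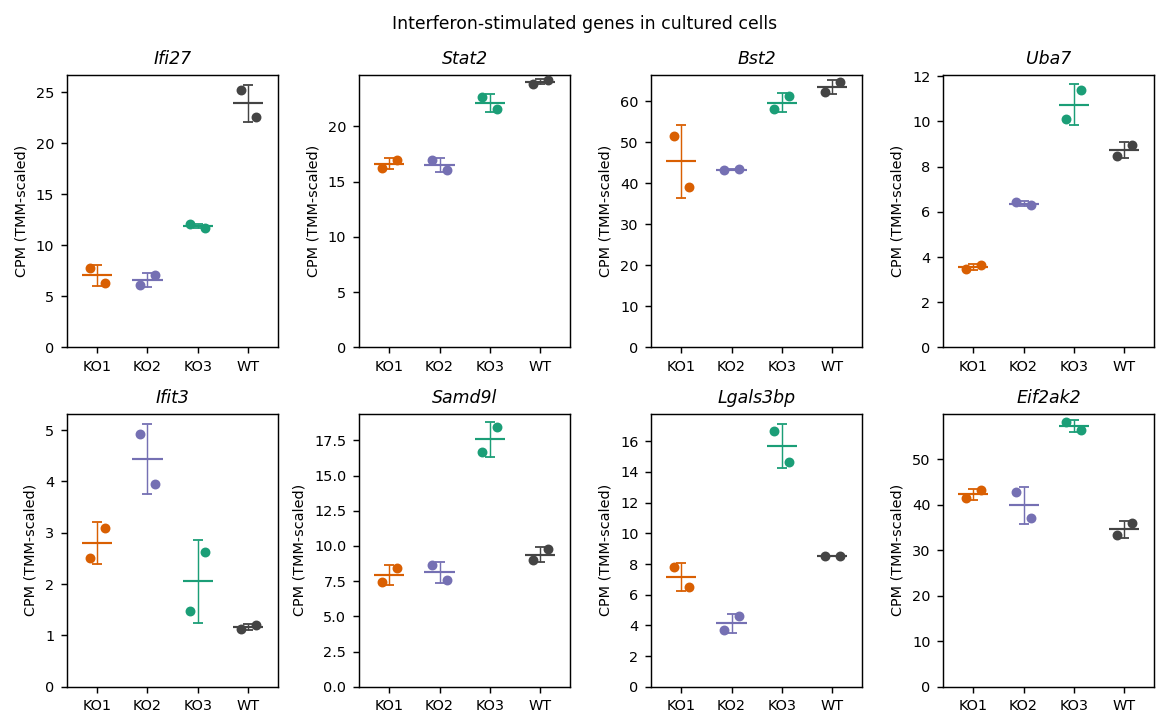
Level of 8 genes in each cultured cell library (CPM, TMM-scaled, linear axis from 0), by line. Points are libraries, lines the means and bars the SD (n = 2 per group). Ifi27 is at 6.12 to 12.1 CPM in KO cells and 22.6 to 25.2 CPM in WT cells, and KO3 parts from KO1 and KO2 in Samd9l and Lgals3bp.

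Whether the KO effect in tumours differed from that in cells was tested on all 21 libraries. None of the 42 genes passed by edgeR, where 0.962% of all genes did; 10 had an unadjusted p under 0.05 and DESeq2 called 2. The difference was positive in 34 genes, with a median of 0.50, against -0.01 over all genes. Only 29 of the 42 genes had passed the filter in cells alone. Another limit is that 6 were at 0 counts in all 8 cell libraries, so cells gave no effect to compare. Among the 21 cell-expressed genes the difference was positive in 19, with a median of 0.50. In the 21 tumour-only genes it was positive in 15 and ran from -3.20 to 3.39. Ifi27 and Stat2 had the smallest p, with differences of 1.23 ± 0.31 and 0.87 ± 0.22 (SE, log2) and adjusted p of 0.0613 and 0.0687 by edgeR. For Ddx58 and Parp9 the differences were 0.54 ± 0.16 and 0.64 ± 0.19. The count was 3 without KO3 cells replicate 2, 2 without KO3 cells replicate 1 or WT tumours replicate 1, and 4 without KO3 altogether.

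The interferons themselves were near the limit of detection. None of 18 named type I interferon genes passed the filter in tumours or cells, and all were at 0 counts in all 8 cell libraries. In tumours their summed level was 0 to 0.502 CPM in KO and 0.117 to 0.470 CPM in WT, and Ifnb1 reached 0.0470 CPM in KO and 0.0503 CPM in WT at most. The receptor chains Ifnar1 and Ifnar2 and the kinases Jak1 and Tyk2 had log2 fold changes of -0.02, -0.08, -0.02 and 0.11 in KO tumours, and none passed. Of 13 genes for sensing and induction of interferon 1 rose in KO tumours, Tlr3, the endosomal receptor for double-stranded RNA, by 0.74 (adjusted p = 0.0403, edgeR), with 23.6 to 51.3 CPM in KO and 17.9 to 21.8 CPM in WT tumours. By line Tlr3 passed in KO3, while in KO1 Tlr7, a receptor for single-stranded RNA, rose and Ticam1 fell. In KO cells 3 of 10 tested genes of that list passed: the adaptor gene Myd88 and the kinase gene Tbk1 rose by 0.59 and 0.31, and the adaptor gene Ticam1 fell by 0.72. None of 4 tested negative regulators, among them Socs3, and none of 5 tested genes of type II and III interferon signalling passed in KO tumours; Irf1, in the second group, had 0.53 with an adjusted p of 0.0654 by edgeR. By line, Irf1 rose in KO2 and KO3, by 0.68 and 0.66, and the receptor gene Ifnlr1 rose in KO1, by 0.91. Ifng was at most 0.0837 CPM in KO tumours and 0.0784 CPM in WT tumours.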

How the data were processed

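RNA from Myc-CaP cells (8 libraries) and tumours (13) was made into stranded libraries, per the labels' protocols. The values used are estimated counts per gene that the authors deposited, 7.96% to 10.2% of them not whole in a library; a length-scaled table served as an alternative. The submitters' processing notes name Salmon 1.5.2, STAR, Trim Galore 0.6.7 and GRCm38, without settings or a strand option. Positions are from GENCODE M21 (45143 of 45706 IDs matched).

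Counts were rounded. Genes that passed filterByExpr were tested with edgeR 4.0.16 in R 4.3.3 (TMM scaling, quasi-likelihood F test), and p-values were adjusted by Benjamini-Hochberg over all genes tested, with a threshold of 0.05. KO against WT was fitted by genotype and by line. The method was tested on simulated data. The genes, lists and tests were chosen with earlier results of these data known. Genes named were those past the threshold in KO against WT tumours or cells, the highest of each role in tumours, and Stat2, Irf7, Irf9, Isg15, Ifit1 and Usp18; others were chosen after their values were seen. No replicates agreed within sampling noise. The alternatives tried were DESeq2 1.42.0, RLE scaling, all genes unfiltered, the length-scaled table, a replicate block, limma 3.58.1 voom with line as a random block, summed libraries, marker covariates, and fits without single libraries or lines.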

Additional observations from a re-analysis of the deposited data

Results flagged for a closer look

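In 57 groups of values of the genes named, 4 had 1 library far from the others, near the 1 in 20 that chance gives. KO1 tumours replicate 1 was the highest KO tumour for Ifit2, at 65.4 CPM, the next being 38.5 CPM, and for Samd9l, at 84.6 CPM, the next being 59.6 CPM. Without that library both stayed past the threshold in KO against WT tumours. WT tumours replicate 1 was the highest WT tumour for Ifi27, at 185 CPM, the next being 114 CPM, and for Parp9, at 34.9 CPM, the next being 29.1 CPM. That library also held the neutrophil and muscle markers given above, whose part in these values was not tested.

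By edgeR's F test the 3 KO lines differed in tumours in Lgals3bp (adjusted p = 0.0035). In cells the smallest adjusted p were those of Lgals3bp (6.73e-06), Uba7 (1.94e-05), Samd9l (2.76e-05) and Parp14 (4.99e-05). The values were 0.000714 for Ifi27, 0.000973 for Irf9, 0.00142 for Eif2ak2, 0.00234 for Parp9, 0.00345 for Oasl1, 0.00348 for Dtx3l and 0.00415 for Ifi35, again as adjusted p by edgeR. For Stat2, Rsad2 and Sp100 they were 0.0047, 0.00506 and 0.00956, and for Bst2, Usp18, Ifit3, Ifi27l2a and Ifit2 they were 0.0131, 0.0133, 0.0216, 0.0224 and 0.0341, by the same edgeR test.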

How the results depend on the processing

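Values are counts of the 42 genes called, and the share of all genes called was not computed for these alternatives. The cause of each shift was not tested, except that summing, blocking or leaving out libraries leaves fewer degrees of freedom. In KO against WT tumours, 8 with all libraries, the count was 16 by DESeq2, 2 with the replicate block, 4 with WT tumours 3 and 4 summed, 0 by limma voom with line as a random block, 0 with counts summed per line, 4 with the macrophage covariate, 5 without KO2 and 5 without KO3, and 2 without WT tumours 1 and 4 together, a fit chosen after seeing the data, as was the macrophage covariate; in this last fit Ifi27 turned to 0.017 (adjusted p = 0.969, edgeR). The median log2 fold change over the 42 stayed between 0.37 and 0.63 in these fits. Leaving out 1 library gave 2 to 9. In KO1 tumours, 18 with all, it was 11 with the length-scaled table, 5 with the macrophage covariate and 5 to 25 without 1 library. In KO2 tumours, 2 with all, it was 0 without a filter, 0 with the length-scaled table, 0 with the replicate block, 0 with WT tumours 3 and 4 summed, 1 without WT tumours 1 and 4, and 0 to 1 without 1 library. In KO3 tumours, 5 with all, it was 11 by DESeq2, 3 with the length-scaled table, 0 with the replicate block, 2 with WT tumours 3 and 4 summed, 2 with the macrophage covariate, 3 without WT tumours 1 and 4, and 0 to 4 without 1 library. Differences among KO lines in tumours, 1 with all, gave 2 by DESeq2, 2 with the leukocyte covariate, 2 without WT tumours 1 and 4, and 1 without any 1 library.

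In KO against WT cells, 1 with all, the count was 4 by DESeq2, 0 with counts summed per line, 13 without KO3 and 0 to 4 without 1 library. Leaving out 1 library gave 7 to 11 in KO1 cells, 8 to 10 in KO2 cells and 4 to 8 in KO3 cells, where the length-scaled table gave 4, and 13 to 19 for differences among lines in cells. The difference between tumours and cells, 0 with all, gave 2 by DESeq2, 1 with the length-scaled table, 4 without KO3 and 0 to 3 without 1 library. WT tumours against WT cells gave 34 to 35 without 1 library.

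The replicate numbers did not pair the libraries: deviations from group means correlated by -0.04 to 0.11 between cell libraries of 1 number and by -0.38 to 0.13 between such tumours, so the replicate block tests no shared origin. Limits are the 4 WT tumours, of which 2 stand apart, the 1 WT line, and host cells that bulk RNA does not separate.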
